A study of Homo sapiens and Mus musculus with 10 samples.

Results

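The comparison described here is that of MOLM-13 cells given WM-1119 with MOLM-13 cells given DMSO, made within libraries of the same replicate number. It rests on 6 of the 10 libraries of the study, 3 from cells treated with 4 µM WM-1119 for 4 days and 3 from DMSO controls. The MOLM-13 line derives from human acute myeloid leukaemia with an MLL rearrangement, and here it was grown in RPMI with serum and antibiotics. RNA was purified on RNeasy columns and the libraries were made and sequenced by a company. The labels record no time for the DMSO cultures and no origin for the replicate numbers. They do not say whether replicates were separate cultures. The p-values set a mean difference against the scatter of differences between same-numbered libraries, and that scatter may be technical. Of 27800 gene symbols in the MOLM-13 table, 11894 were tested, those with a mean of at least 1 TPM over the 6 libraries and a symbol not starting MIR, SNOR or RNU. The other 4 libraries of the series come from a mouse line and were not used.

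KAT6A is a lysine acetyltransferase of the MYST family that works in a complex with a BRPF scaffold, ING5 and MEAF6 and acetylates histone H3 at promoters. WM-1119 competes with acetyl-CoA for its catalytic pocket and also binds the close relative KAT6B. Acute myeloid leukaemia cells are halted at an immature stage, and monocytes and neutrophils that mature normally gain granule proteins, the phagocyte oxidase, pattern-recognition receptors and antigen presentation machinery. The series' design text places KAT6A in this block and gives the purpose of the treatment as a test of the transcriptional programme of leukaemia cells under KAT6A inhibition.

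The unit TPM gives a transcript's share of a library after division by its length. The values of a library have a fixed sum, so a gene's TPM can shift because other transcripts did, and the number of reads behind a value is unknown. Between 12112 and 12416 symbols reached 1 TPM in a library. Symbols starting MIR, SNOR or RNU took 13.7% to 22.5% of a library and ribosomal protein genes 25.7% to 39.8%, with the highest ribosomal share in DMSO library 3, against 33.9% in WM-1119 library 3. The part of these shares in the differences below was not tested. Replicate numbers marked a large source of spread. For 75.3% of the genes tested, the SD between replicate numbers was larger than the difference between treatments. Both libraries numbered 3 stood apart in erythroid genes. HBA2, an alpha-globin gene with a near-identical copy, was at 0, 0 and 60.9 TPM in DMSO and 0, 0.587 and 89.0 TPM in WM-1119, and ALAS2, the erythroid enzyme of haem synthesis, at 0.785 and 2.22 TPM in the libraries numbered 3 and at most 0.0643 TPM elsewhere. Counts without pair 3 are given with the other limits at the end. Libraries of the same number correlated at 0.985 to 0.988 across genes, and libraries of the same treatment at 0.957 to 0.980.

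Below, a difference is the mean over the 3 pairs of log2(TPM + 1) in WM-1119 minus that in DMSO, with the SE that limma gave for the paired fit (n = 3 pairs). The added 1 makes it smaller than the log2 ratio for low genes. A gene is called where its two-sided p, adjusted by Benjamini-Hochberg over all genes tested, was under 0.05. Values for single libraries are given in the order of replicates 1, 2 and 3. In bulk RNA, more cells of a state and more RNA per cell cannot be told apart.

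In WM-1119 the paired test called 164 genes higher, 1.38% of those tested, and 44 lower, 0.37%, 208 or 1.75% in all. Genes that rose included SLPI, AOC1, LILRA5, ECI2 and GATM, and genes that fell included IL2RA, ENPP2, SLC6A8, WASF1, PAK3 and EEF1A2. SERF1A was also called higher, but its level summed with that of a near-identical copy overlapped between treatments, as given below. Called differences ran from 0.41 to 2.55 with a median of 0.69 among genes that rose, and from -1.55 to -0.43 with a median of -0.73 among genes that fell. Of the genes that rose 28 did so by at least 1 on the log2 scale, and of those that fell 14. GENCODE annotates 155 and 37 of them as protein coding. All 208 had the same sign in all 3 pairs, a pattern that 29.6% of all genes tested showed upward and 14.6% downward. The 3 WM-1119 values all lay above the 3 DMSO values for 108 of the 164, and all below for 23 of the 44, against 4.68% and 2.35% of all genes tested. For the remaining calls the groups overlapped, and only the pairing separated them. The calls were made on these same values, which favours genes of 1 sign and of separate groups. These shares are therefore no separate support for the calls.

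**Figure D1:**
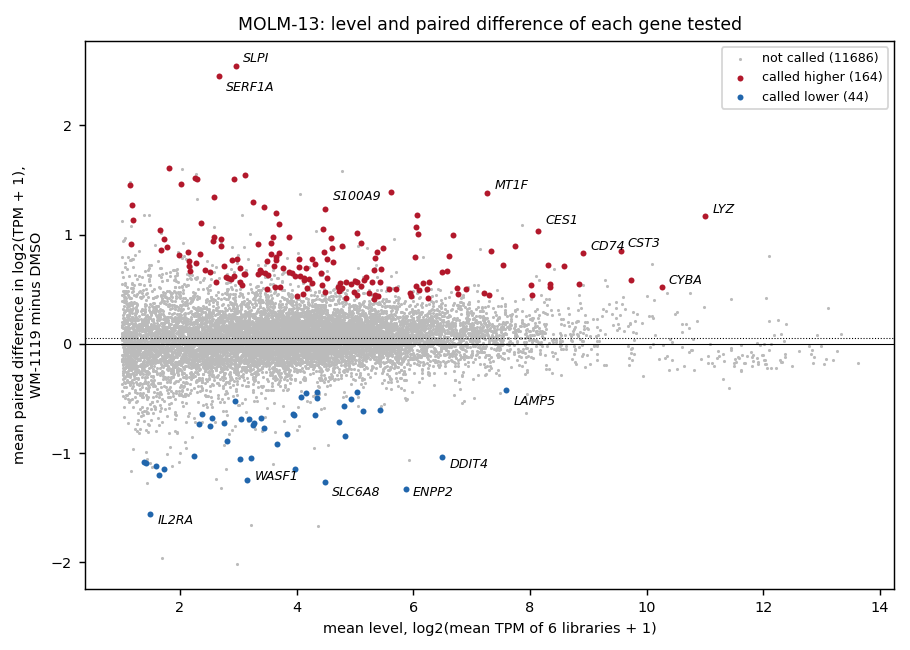
Each point is 1 of 11894 genes, with its mean level in log2(TPM + 1) on the horizontal axis and its mean paired difference, WM-1119 minus DMSO, on the vertical axis; red marks the 164 genes called higher, blue the 44 called lower, and the dotted line the median of all genes at 0.05. Calls span the range of levels up to LYZ, at 2759 TPM on average in WM-1119, and SLPI (2.55) and IL2RA (-1.55) are the farthest called genes on either side.

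The pairs differed in how far the whole table moved. The median difference of all genes was 0.04 in pair 1, 0.02 in pair 2 and 0.10 in pair 3, and 62.1% of genes had a positive mean difference against 37.9% with a negative one. At an unadjusted p under 0.05, 1850 genes were higher (15.6%) and 653 lower (5.49%). Across the 11894 genes, which are not independent replicates, differences of pairs 1 and 2 correlated at 0.28 (Pearson), of pairs 1 and 3 at 0.40 and of pairs 2 and 3 at 0.40. These pairs share no library. The genes called higher, chosen on these same differences, had medians of 0.63, 0.59 and 0.79 in pairs 1, 2 and 3. The genes called lower, chosen likewise, had -0.72, -0.77 and -0.77. A size of at least 0.5 in every pair was reached by 114 genes upward, 0.958%, and by 43 downward, 0.362%.

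**Figure D2:**
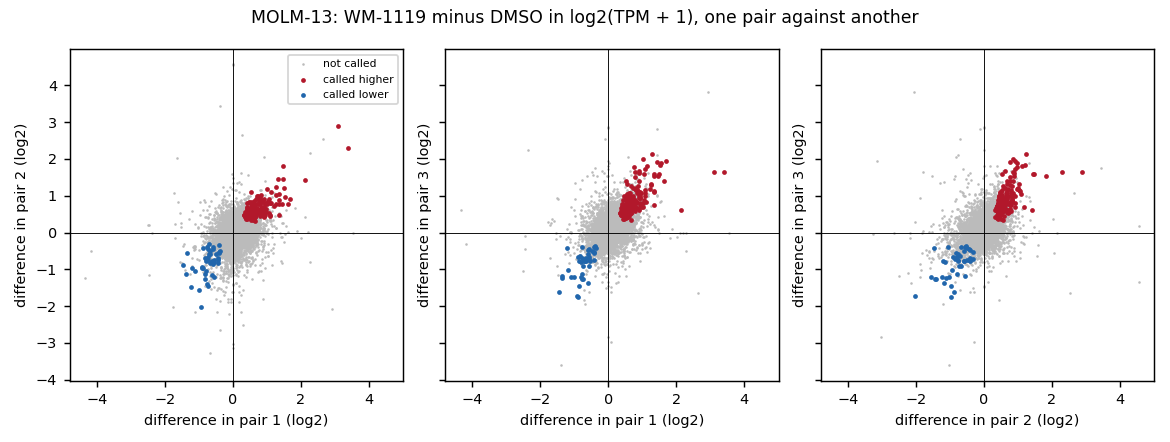
Each panel plots the difference in log2(TPM + 1) of every gene in one pair against that in another, with called genes in colour (red higher, blue lower). The called genes lie in the upper right and lower left corners of all 3 panels, a place that follows from calling them on these same differences. The cloud of genes is only loosely aligned, with correlations over all genes of 0.28, 0.40 and 0.40.

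The target's own transcript is not removed by an enzyme inhibitor, and KAT6A was at 22.8, 18.7 and 13.6 TPM in DMSO and 21.2, 20.1 and 13.9 TPM in WM-1119. Its difference was 0.01 ± 0.08 (limma, adjusted p = 0.954). Among the 18 genes of KAT6A complexes and other MYST acetyltransferases, all tested, 0 were called, 2 had an unadjusted p under 0.05, and the median was 0.04 beside 0.05 for all genes.

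The largest called difference was that of SLPI. SLPI encodes a secreted inhibitor of neutrophil serine proteases (GRCh38 chromosome 20, 45252239 to 45254564). It stood at 0.897, 1.05 and 1.65 TPM in DMSO and at 15.3, 14.3 and 7.23 TPM in WM-1119, so every treated library lay above every control, and the ratio of the means was 10.2. Its difference of 2.55 ± 0.27 had a limma adjusted p of 0.0212. LYZ, lysozyme, rose from far higher levels, 1969, 1465 and 607 TPM, to 3292, 2894 and 2090 TPM. That is a difference of 1.17 ± 0.19 (adjusted p = 0.0392), and library 3 was the lowest of its group under both treatments. HP, haptoglobin, stood at 8.34, 4.85 and 1.25 TPM in DMSO and at 16.5, 6.89 and 3.48 TPM in WM-1119. The groups overlapped, but each pair was higher (0.78 ± 0.13, adjusted p = 0.0457).

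List counts from here on are to be read beside 1.38% of all genes called higher and 0.37% called lower. Lists share members, with CYBB in the neutrophil granule, oxidase and monocyte lists. LYZ is in both granule lists and those of monocytes and leukaemia lines, so list counts are not independent. Of 25 secondary and tertiary neutrophil granule genes listed, 8 reached the 1 TPM mean. SLPI, LYZ, HP and CYBB were called higher among them, 50%, 0 were called lower, and their median was 0.58. Quantile normalization and rescaling without ribosomal protein and small RNA symbols did not call HP, and in the latter the median was 0.38. The defining genes of these granules were not expressed at that level, with LTF at 0 TPM in 5 libraries and 0.0213 TPM in the other, and LCN2 and OLFM4 at 0 in all 6. Primary granule genes were abundant in both treatments. All 14 were tested and all 14 had positive differences, with a median of 0.34 (13 or 14 under the other scalings), but LYZ alone was called. PRTN3, proteinase 3, was at 7490, 4364 and 3422 TPM in DMSO and 7236, 5342 and 4215 TPM in WM-1119, a difference of 0.18 ± 0.11 (adjusted p = 0.376). MPO, myeloperoxidase, stood at 34.8, 40.0 and 10.6 TPM in DMSO and 40.0, 55.1 and 15.2 TPM in WM-1119 (0.37 ± 0.09, adjusted p = 0.0839).

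The list of monocyte and macrophage markers held the most calls. Of 30 markers 22 were tested, 9 were called higher (40.9%, beside 1.38% of all genes) and 0 lower, and all 22 differences were positive, with a median of 0.50. The called markers were VCAN, S100A8, S100A9, LYZ, CD36, TLR4, CYBB, CST3 and AIF1. The median was 0.58, 0.39 and 0.64 in pairs 1, 2 and 3, and 0.36 to 0.45 under the other scalings tried. S100A8 and S100A9 together form calprotectin, an abundant cytosolic protein of phagocytes. S100A9 stood at 21.003, 16.1 and 3.12 TPM in DMSO and 45.0, 31.3 and 12.6 TPM in WM-1119. Library 3 was again low in both groups, and S100A9 rose by 1.23 ± 0.15 (adjusted p = 0.0256). S100A8 rose by 0.84 ± 0.14 (adjusted p = 0.0467), from 13.5, 6.57 and 5.26 TPM to 22.0, 10.2 and 14.1 TPM. CST3, the protease inhibitor cystatin C, was among the most abundant genes that rose. It was at 737, 501 and 394 TPM in DMSO and 1079, 802 and 990 TPM in WM-1119, with no overlap (0.85 ± 0.15, adjusted p = 0.0493). AIF1, an actin-binding protein of macrophages, stood at 197, 227 and 291 TPM and at 375, 323 and 486 TPM, likewise without overlap (0.72 ± 0.10, adjusted p = 0.0280).

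Surface receptors of the same list rose too. CD36, a scavenger and lipid receptor, was at 13.9, 6.62 and 3.13 TPM in DMSO and 21.4, 12.3 and 7.74 TPM in WM-1119 (0.82 ± 0.11, adjusted p = 0.0282). TLR4, the receptor for bacterial lipopolysaccharide, rose by 0.77 ± 0.10 (adjusted p = 0.0280), from 5.27, 5.36 and 3.05 TPM to 9.35, 8.89 and 6.77 TPM. It was the 1 call among 13 Toll-like receptors and adaptors tested, of 17 listed, of which 12 had positive differences and the median was 0.25. Its adaptor MYD88 had a difference of 0.38 ± 0.07 (adjusted p = 0.0629). Of the 8 markers under the 1 TPM mean, CD14 lay between 0.288 and 1.42 TPM in DMSO and between 0.582 and 1.85 TPM in WM-1119, S100A12 was at 0 in all 6 libraries, and MRC1 and CD163 did not exceed 0.0248 TPM. Summed over the 30 markers, the DMSO libraries held 2217 to 3660 TPM and the WM-1119 libraries 4867 to 5801 TPM, with LYZ the largest term.

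The phagocyte NADPH oxidase makes superoxide at the membrane from a catalytic core of CYBB and CYBA and cytosolic organizers. All 6 subunits were tested, and 3 were called higher, 50% beside 1.38% of all genes. CYBB, the catalytic subunit gp91phox, stood at 4.94, 8.91 and 6.13 TPM in DMSO and 13.2, 19.2 and 16.7 TPM in WM-1119. Pairs differed by 1.26, 1.02 and 1.32, and the mean of 1.20 ± 0.09 had the lowest adjusted p of the table (0.0142), together with GATM, IFI27L2 and WASF1. CYBA, its membrane partner p22phox, rose by 0.52 ± 0.08 (adjusted p = 0.0372) from a far higher level, from 1057, 749 and 1206 TPM to 1405, 1096 and 1822 TPM. All 6 differences were positive, but 3 of the 6 were negative once TPM were rescaled without ribosomal protein and small RNA symbols, where 2 were called.

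**Figure D3:**
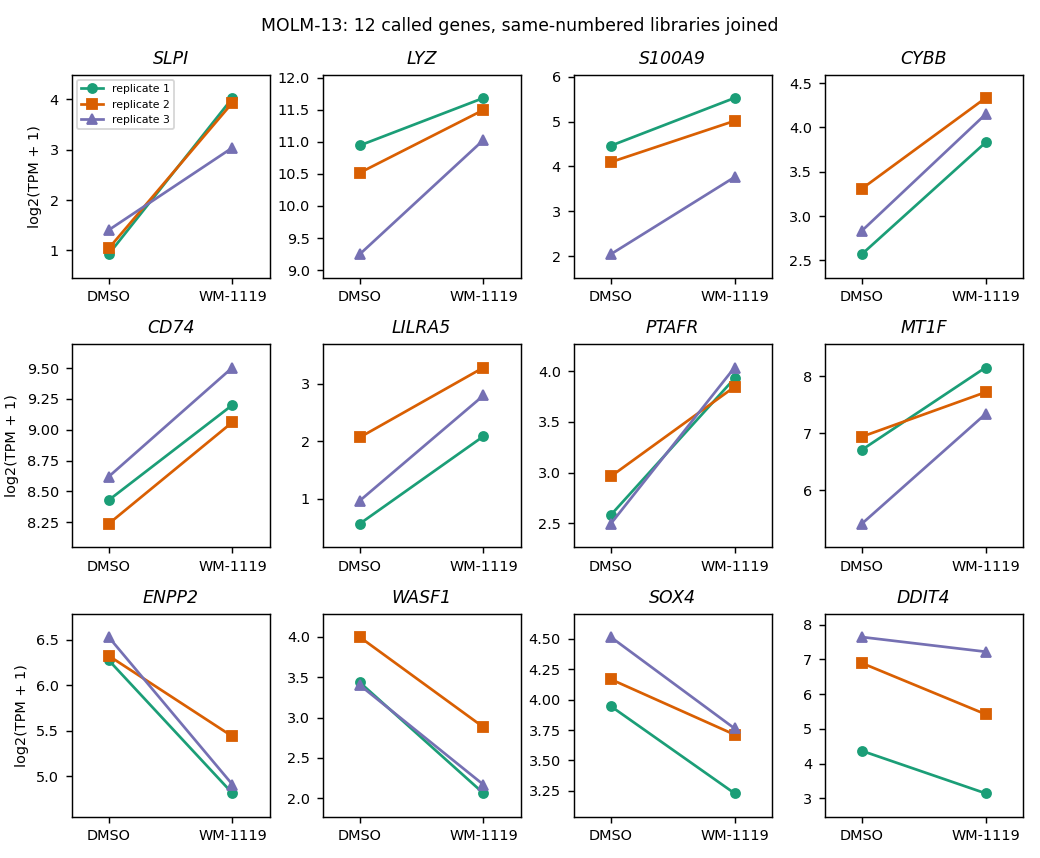
Each panel shows 1 called gene in log2(TPM + 1), each on its own vertical range, with a line joining the DMSO and WM-1119 libraries of the same replicate number. The 8 genes that rose slope up and the 4 that fell slope down in every pair. For S100A9 and DDIT4 the distance between replicate numbers exceeds the distance between treatments in both groups, and for LYZ and MT1F in DMSO.

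Antigen presentation genes formed a further group. CD74, the invariant chain that guides MHC class II molecules, was at 344, 301 and 392 TPM in DMSO and 587, 533 and 725 TPM in WM-1119. No treated library overlapped a control, and the pairs differed by 0.77, 0.82 and 0.89 (mean 0.83 ± 0.07, adjusted p = 0.0173). IFI30, a lysosomal thiol reductase that prepares antigens for class II loading, rose by 1.01 ± 0.09 (adjusted p = 0.0163), from 48.6, 38.6 and 44.9 TPM to 87.4, 79.7 and 102 TPM. These were the 2 calls among 8 class II genes tested, of 15 listed, 25% beside 1.38% of all genes. Of the 8, 7 were positive and the median was 0.37.

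In class I presentation all 19 genes listed were tested and had positive differences, with a median of 0.27. Of these 3 were called higher, 15.8% beside 1.38% of all genes. PSMB9, an immunoproteasome subunit, rose from 25.9, 21.03 and 35.3 TPM to 39.0, 30.0 and 57.1 TPM (0.58 ± 0.08, adjusted p = 0.0280). HLA-B and HLA-C rose by 0.45 ± 0.08 and 0.44 ± 0.07 (adjusted p = 0.0493 and 0.0457). Reads of the class I heavy chains can be split between near-identical genes, so their single values are uncertain. B2M, the shared light chain, had a difference of 0.40 ± 0.09 (adjusted p = 0.0859). Under the other scalings 17 or 18 of the 19 were positive and PSMB9 alone was called.

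Of 28 lysosome genes, all tested, 3 were called higher, 10.7% beside 1.38% of all genes. Positive differences were found in 27 (median 0.22), against 23 under the other scalings. GRN, the progranulin gene, stood at 306, 299 and 259 TPM in DMSO and 543, 427 and 454 TPM in WM-1119 (0.72 ± 0.09, adjusted p = 0.0258). CTSZ, cathepsin Z, rose by 0.72 ± 0.09 (adjusted p = 0.0273). Among 9 Fc receptors and adaptors tested, of 10 listed, FCGRT was called, 7 were positive and the median was 0.37. FCGRT, the neonatal Fc receptor that recycles IgG, rose from 45.6, 49.8 and 44.0 TPM to 75.8, 79.3 and 89.2 TPM (0.80 ± 0.09, adjusted p = 0.0220). FCER1G, the signalling chain of several Fc receptors, had 0.81 ± 0.16, a difference as large that missed the threshold (adjusted p = 0.0656).

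In all, 11 of the lists, those of granules, oxidase, monocytes, antigen presentation, lysosome, Toll-like and Fc receptors, integrins and lipid mediators, held 140 tested genes. Of these 25 were called higher, 17.9% beside 1.38% of all genes, and 0 lower. Positive differences were found in 128, and the median was 0.29. Every pooled list held at least 1 call, so the pool follows the outcome and its share supports nothing. Left out were 23 chemokine and cytokine receptors and 24 myeloid transcription factors tested, with 0 calls in either list. The 11 lists account for 25 of the 164 genes that rose, and 136 of the 164 belonged to none of the 46 lists.

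Lipid mediator and adhesion genes added single calls. PTAFR, the receptor for platelet-activating factor, was at 4.99, 6.79 and 4.64 TPM in DMSO and 14.2, 13.4 and 15.4 TPM in WM-1119, a clear separation (1.26 ± 0.13, adjusted p = 0.0212). LTC4S, which makes leukotriene C4, rose by 1.09 ± 0.17 (adjusted p = 0.0367), from 9.46, 4.64 and 7.09 TPM to 17.1, 9.17 and 24.2 TPM. The other 9 lipid mediator genes tested were not called, among them ALOX5AP at 0.23 ± 0.11 (adjusted p = 0.311). Of 15 integrin and adhesion genes tested, PECAM1 rose (0.67 ± 0.09, adjusted p = 0.0282). ITGAM, the CD11b chain, had 0.39 ± 0.12 (adjusted p = 0.145), and ITGAL, the CD11a chain, -0.23 ± 0.08 (adjusted p = 0.175).

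Gene families picked after their values were seen show the same receptors and calcium-binding proteins in more detail, and their counts support nothing. Of 11 leukocyte immunoglobulin-like receptors, 8 were tested, all positive with a median of 0.66, and LILRA5, LILRB2 and LILRA1 were called. LILRA5, an activating member, stood at 0.484, 3.20 and 0.958 TPM in DMSO and 3.26, 8.73 and 5.95 TPM in WM-1119 (1.52 ± 0.15, adjusted p = 0.0173). LILRB2, an inhibitory receptor that binds MHC class I, rose by 0.94 ± 0.10 (adjusted p = 0.0212), from 3.35, 2.39 and 3.39 TPM to 7.23, 5.33 and 7.76 TPM. Siglecs moved both ways, with SIGLEC14 higher (0.57 ± 0.10, adjusted p = 0.0494, not called under the other scalings) and SIGLEC6 lower (-0.72 ± 0.10, adjusted p = 0.0282). Of 9 S100 genes tested, S100A6 joined S100A8 and S100A9, at 128, 141 and 176 TPM in DMSO and 252, 220 and 368 TPM in WM-1119 (0.89 ± 0.10, adjusted p = 0.0216). Among annexins, which bind membranes in the presence of calcium, all 9 tested were positive (8 under the other scalings), and ANXA5 (1.00 ± 0.13, adjusted p = 0.0280) and ANXA2 (0.67 ± 0.09, adjusted p = 0.0313) rose.

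Other genes with large rises had varied roles. AOC1, the diamine oxidase that degrades histamine, stood at 5.16, 3.34 and 2.07 TPM in DMSO and 14.0, 9.15 and 12.4 TPM in WM-1119 (1.55 ± 0.18, adjusted p = 0.0242). GATM, the first enzyme of creatine synthesis, rose from 1.90, 0.950 and 1.82 TPM to 7.06, 4.37 and 7.47 TPM (1.51 ± 0.11, adjusted p = 0.0142). ECI2, an isomerase of fatty acid oxidation, rose by 1.51 ± 0.19 (adjusted p = 0.0256), and LGALS2, a galectin, by 1.35 ± 0.16 (adjusted p = 0.0242). In all 4 of these genes the treated libraries lay above every control.

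MT1F, a metal-binding metallothionein, was at 104, 122 and 41.7 TPM in DMSO and 283, 209.7 and 161 TPM in WM-1119 (1.38 ± 0.19, adjusted p = 0.0306). All 7 metallothioneins tested had positive differences (median 0.79), though their near-identical sequences make single values uncertain and 1 was called. GHRL, the ghrelin precursor, rose by 1.29 ± 0.21 (adjusted p = 0.0400). FCER2, the low-affinity IgE receptor CD23, rose by 1.01 ± 0.09 (adjusted p = 0.0173) across libraries that differ several-fold, from 5.90, 22.6 and 33.8 TPM to 13.7, 39.9 and 76.0 TPM. F13A1, a clotting factor subunit of monocytes and platelets, rose from 23.6, 17.1 and 7.54 TPM to 39.7, 29.9 and 14.3 TPM (0.78 ± 0.08, adjusted p = 0.0173). SPINT1, a membrane protease inhibitor, rose by 0.89 ± 0.08 (adjusted p = 0.0163), and GPR27, an orphan receptor, by 0.92 ± 0.09 (adjusted p = 0.0173).

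A large difference vanished in a sum over gene copies. SERF1A was called at 2.45 ± 0.30 (adjusted p = 0.0249), with 0, 0 and 3.98 TPM in DMSO and 9.55, 3.93 and 14.5 TPM in WM-1119. Its near-identical copy SERF1B went the other way, at 13.6, 8.45 and 11.2 TPM and at 4.55, 3.64 and 0 TPM (-2.01 ± 0.45, adjusted p = 0.0757). The copies lie on chromosome 5 of GRCh38, SERF1A at 70900665 to 70918530 and SERF1B at 70025247 to 70043113. Summed, they stood at 13.6, 8.45 and 15.2 TPM in DMSO and 14.1, 7.57 and 14.5 TPM in WM-1119, and the summed levels overlapped between treatments.

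The inflammatory and interferon genes that were tested did not move as a block. Of 22 NF-kB subunits and targets tested, 2 were called higher, 9.09% beside 1.38% of all genes, with 16 positive and a median of 0.17. NFKBIA, the inhibitor that holds NF-kB in the cytosol, rose by 0.56 ± 0.09 (adjusted p = 0.0381) and TNFAIP2 by 0.51 ± 0.09 (adjusted p = 0.0464). TNFAIP2 was not called under quantile normalization or after rescaling without ribosomal protein and small RNA symbols. Of 36 interferon-stimulated genes listed, 24 were tested, of which 13 had positive and 11 negative differences. At an unadjusted p under 0.05 in limma, 4 of the 24 were higher and 6 lower, beside 15.6% and 5.49% of all genes. In all 3 pairs 6 were higher and 7 lower, beside 29.6% and 14.6% of all genes. The median of 0.02 was negative under the 3 other scalings. After rescaling without ribosomal protein and small RNA symbols 30 were tested, 9 were positive and the median was -0.13. Among members under the 1 TPM mean, IFIT1, IFIT5, OAS3, IFI27, IFI44, IFI44L, RSAD2 and CXCL10 were lower in every pair. ISG20, HERC5, EPSTI1 and GBP1 were not, and the levels of all these members were low. BST2, an antiviral tether, was called, from 219, 172 and 239 TPM to 315, 247 and 352 TPM (0.53 ± 0.07, adjusted p = 0.0279). USP18, a brake on interferon signalling, had -0.48 ± 0.11 (adjusted p = 0.0875). IFI27L2, outside that list, stood at 28.4, 30.2 and 61.9 TPM in DMSO and 73.8, 63.9 and 137 TPM in WM-1119 (1.18 ± 0.08, adjusted p = 0.0142).

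The myeloid transcription factors showed 0 calls among 24 tested, with 7 higher and 1 lower at an unadjusted p under 0.05 and a median of 0.11, which was 0.04 or less under the other scalings and 0.01 without replicate 3. SPI1, the gene of PU.1, was at 263, 252 and 248 TPM in DMSO and 271, 280.3 and 319.7 TPM in WM-1119 (0.19 ± 0.09, adjusted p = 0.278). CEBPD, a factor of later myeloid cells, had 0.46 ± 0.10 (adjusted p = 0.0740), and CEBPE, a factor of granulocyte maturation, 0.46 ± 0.12 (adjusted p = 0.111) at levels under 4 TPM.

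Promoter sequences were read for a description of the genes that moved by at least 0.5 in every pair. RefSeq (GRCh38.p14) gave a window of 250 bases before to 50 after the start for 89 of the 114 genes higher and 31 of the 43 lower, and for 9001 of the 11894 tested. The PU.1 motif GAGGAAGT, read on both strands, was in 6 of the 89 windows, 6.74%, against 2.64% of all. The C/EBP motif TTGCNNAA was in 11, 12.4%, against 7.08%, the AP-1 motif TGANTCA in 9, 10.1%, against 4.41%, and a motif of NF-kB in 6, 6.74%, against 2.11%. The E-box CACGTG was in 3, 3.37%, against 10.6%, and it was in 1 of the 31 windows of lower genes. Among the 31 windows of lower genes the C/EBP motif was in 3, 9.68%, the PU.1 and AP-1 motifs in 1 each and the NF-kB motif in 0. The interferon-stimulated element was in 6.74% of higher and 6.45% of lower genes, against 2.94% of all. These are counts of letters in few promoters and were not tested.

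Among the holders, 4 promoters clear of annotated exons are printed to show the motifs beside genes that rose, each as the 250 bases before the RefSeq start, 5′ to 3′ on the gene's strand, with the motif in capitals. CCL23, a chemokine for monocytes, holds the PU.1 motif on the opposite strand (chr17:36017973-36018222, minus strand), 22 bases from the start. GAPT, a membrane adaptor of blood cells, holds it the same way 52 bases from the start (chr5:58491185-58491434, plus strand). LILRA5 (chr19:54313167-54313416, minus strand) and MYOF, a membrane repair protein (chr10:93482335-93482584, minus strand), hold the C/EBP motif 111 and 227 bases from the start. PTPN3 and SPRY1, which were lower in every pair, also hold the C/EBP motif in windows clear of exons and are not printed. The printed choice therefore does not tie the motif to a direction.
CCL23: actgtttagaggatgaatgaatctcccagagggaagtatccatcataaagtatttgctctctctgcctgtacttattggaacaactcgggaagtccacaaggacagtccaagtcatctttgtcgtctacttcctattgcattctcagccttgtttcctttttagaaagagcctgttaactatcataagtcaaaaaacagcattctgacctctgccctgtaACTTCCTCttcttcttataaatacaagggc
GAPT: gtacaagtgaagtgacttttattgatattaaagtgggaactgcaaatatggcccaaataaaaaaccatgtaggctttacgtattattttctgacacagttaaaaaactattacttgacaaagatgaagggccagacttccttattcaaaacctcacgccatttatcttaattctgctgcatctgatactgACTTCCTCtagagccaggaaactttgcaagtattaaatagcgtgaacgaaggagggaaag
LILRA5: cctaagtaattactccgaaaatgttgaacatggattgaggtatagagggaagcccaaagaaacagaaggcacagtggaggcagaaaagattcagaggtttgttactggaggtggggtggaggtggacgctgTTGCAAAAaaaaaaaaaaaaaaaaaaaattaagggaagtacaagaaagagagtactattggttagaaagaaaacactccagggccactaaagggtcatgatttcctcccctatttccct
MYOF: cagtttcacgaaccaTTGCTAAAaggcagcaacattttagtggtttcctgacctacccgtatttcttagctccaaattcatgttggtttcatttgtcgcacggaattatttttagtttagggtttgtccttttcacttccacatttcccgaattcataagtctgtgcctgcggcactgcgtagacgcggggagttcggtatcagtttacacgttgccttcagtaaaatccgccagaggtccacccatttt
CCL23 rose from 61.1, 40.3 and 25.8 TPM to 114, 62.9 and 84.9 TPM (1.07 ± 0.18, adjusted p = 0.0468). GAPT rose by 0.98 ± 0.12 (adjusted p = 0.0242), from 3.87, 3.08 and 2.20 TPM to 7.41, 6.93 and 6.31 TPM. MYOF rose by 0.74 ± 0.12 (adjusted p = 0.0453), from 2.13, 4.41 and 1.40 TPM to 5.12, 6.93 and 2.91 TPM. These 3 were named after their values were seen, for their promoters.

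Among genes that fell, ENPP2 combined a high level with a large difference. It encodes autotaxin, the secreted enzyme that makes lysophosphatidic acid. ENPP2 stood at 76.5, 79.2 and 91.5 TPM in DMSO and 27.1, 42.4 and 29.05 TPM in WM-1119, with no overlap (-1.32 ± 0.14, adjusted p = 0.0212). WASF1, an actin nucleation regulator, fell from 9.83, 15.0 and 9.58 TPM to 3.17, 6.36 and 3.49 TPM. Its pairs differed by -1.38, -1.12 and -1.24 (mean -1.24 ± 0.10, adjusted p = 0.0142). EEF1A2, a tissue-restricted translation elongation factor, fell by 1.15 ± 0.13 on the log2 scale (adjusted p = 0.0220), from 8.64, 22.2 and 31.8 TPM to 4.65, 7.77 and 12.6 TPM. SLC6A8, the creatine transporter, was at 2.44, 83.5 and 10.5 TPM in DMSO and 0.716, 27.4 and 3.95 TPM in WM-1119. The groups overlap widely and library 2 was far above the others under both treatments, yet every pair fell (-1.26 ± 0.12, adjusted p = 0.0173).

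BAHCC1, a chromatin reader, fell from 11.6, 10.8 and 7.43 TPM to 4.52, 5.12 and 3.16 TPM (-1.05 ± 0.10, adjusted p = 0.0173). PTPN3, a tyrosine phosphatase, fell from 15.8, 17.98 and 12.9 TPM to 8.52, 7.62 and 6.93 TPM (-0.92 ± 0.10, adjusted p = 0.0212). Neither gene's groups overlapped. DHRS3, a retinal reductase, fell by 0.82 ± 0.09 (adjusted p = 0.0216), and CSPG4, the surface proteoglycan NG2 that marks MLL-rearranged leukaemias, by 0.72 ± 0.09 (adjusted p = 0.0251) from 7.28, 16.1 and 9.87 TPM to 4.25, 8.63 and 5.76 TPM. HIST1H4K, a member of a family of near-identical histone H4 genes, fell by 0.71 ± 0.09 (adjusted p = 0.0249), a value that shared reads make uncertain. LAMP5, named after its value was seen as the most abundant gene that fell, was at 285, 196 and 180.1 TPM in DMSO and 214, 155 and 124 TPM in WM-1119 (-0.43 ± 0.08, adjusted p = 0.0494). Its antisense gene LAMP5-AS1 fell by 1.03 ± 0.17 (adjusted p = 0.0400), and since no strand is stated for the counting, reads of these genes cannot be told apart.

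Of 26 HOXA9 and MLL-fusion targets tested, of 31 listed, SOX4 was called lower, 3.85% beside 0.37% of all genes, and 0 higher. Their median of 0.05 equalled that of all genes, and it was -0.01 to -0.03 under the other scalings, where 3 were called lower. SOX4, a transcription factor of immature cells, was at 14.4, 17.0 and 21.8 TPM in DMSO and 8.38, 12.1 and 12.6 TPM in WM-1119, without overlap (-0.64 ± 0.09, adjusted p = 0.0334). BCL2, an inhibitor of apoptosis, had -0.35 ± 0.07 (adjusted p = 0.0643) and was among the 3 called lower under the other scalings. HOXA9 was at 93.4, 76.1 and 55.2 TPM in DMSO and 114, 79.6 and 61.9 TPM in WM-1119 (0.17 ± 0.08, adjusted p = 0.269), and MEIS1, its cofactor, had 0.14 ± 0.11 (adjusted p = 0.473). FLT3, the receptor tyrosine kinase that carries an internal duplication in this line, stood at 178, 167 and 148 TPM and at 159, 135 and 134 TPM (-0.21 ± 0.07, adjusted p = 0.185). Of 13 genes downstream of STAT5, a factor FLT3 activates, IL2RA was called, 9 were negative and the median was -0.18. IL2RA, the interleukin-2 receptor alpha chain, fell from 1.86, 4.73 and 3.13 TPM to 0.501, 0.416 and 0.258 TPM (-1.55 ± 0.23, adjusted p = 0.0346). PIM1, a kinase of the same list, was lower in each pair, with a difference of -0.45 ± 0.09 (adjusted p = 0.0668) that was called under the 3 other scalings.

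Growth and translation lists leaned downward with 1 call between them. All 23 genes of the ATF4 and amino acid response were tested, 20 had negative differences, 10 of them at an unadjusted p under 0.05, and the median was -0.33. The pairs disagreed in size, with medians of 0.01, -0.74 and -0.24 in pairs 1, 2 and 3. DDIT4, an inhibitor of mTOR signalling, was the call. It stood at 19.7, 118 and 199 TPM in DMSO and 7.85, 41.9 and 148 TPM in WM-1119. DMSO library 3 lay above DMSO library 1 by far more than any pair differed (-1.04 ± 0.18, adjusted p = 0.0494). CBS, an enzyme of cysteine synthesis that is not in that list, had -0.95 ± 0.17 (adjusted p = 0.0528) and was called lower under the 3 other scalings. SLC7A5, from the list of amino acid transporters and also outside the ATF4 list, had -0.54 ± 0.13 (adjusted p = 0.0876). MYC was at 157, 127 and 170 TPM in DMSO and 136, 78.2 and 113 TPM in WM-1119, lower in each pair without passing here (-0.50 ± 0.11, adjusted p = 0.0716), and it was called lower under the 3 other scalings.

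Negative differences were found in 21 of 30 MYC targets, 27 of 31 ribosome biogenesis genes, 36 of 40 cytosolic ribosomal protein genes and 17 of 20 aminoacyl-tRNA synthetases. In these 4 lists 0 genes were called, and the medians were -0.07, -0.09, -0.13 and -0.14 beside 0.05 for all genes. Under the other scalings MYC itself was called and the medians of MYC targets ran from -0.14 to -0.17 and of ribosome biogenesis genes from -0.16 to -0.18, while the median of all genes ran from -0.01 to -0.04. Ribosomal protein genes had a median of 0.01 in pair 1, -0.14 in pair 2 and -0.25 in pair 3.

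Proliferation genes leaned the other way by a small amount. Of 28 G2/M and spindle genes 27 had positive differences, and of 27 G1/S and replication genes 24, each list with a median of 0.18 and 0 calls. Their medians in pair 3 were 0.43 and 0.41, in pair 1 0.05 and -0.03, and without replicate 3 both came to 0.06. Under the other scalings the medians were 0.09 to 0.12. Nuclear-encoded respiratory chain genes had 26 of 27 positive (median 0.13, 0 calls), which was 0.03 after rescaling without ribosomal protein and small RNA symbols.

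The labelled cell type was checked against markers. All 18 markers of acute myeloid leukaemia lines were above a mean of 1 TPM, with 16 positive differences, a median of 0.18 and LYZ called. Some defining markers of other lineages were listed at 0 in all 6 libraries, PF4, PPBP and SELP of platelets, CD2, LCK and GZMA of T and NK cells and MS4A1, VPREB1 and DNTT of B cells. Summed, the 16 B cell markers in the table reached 5.14 to 21.8 TPM under DMSO, against 5.53 to 8.77 TPM under WM-1119. The 21 T and NK cell markers in the table summed to 223 to 315 TPM and 266 to 325 TPM. CD4 gave 139, 137 and 100 TPM of that sum in DMSO and 188, 157 and 121 TPM in WM-1119. CD3D, a T cell receptor chain, fell from 3.09, 17.0 and 15.8 TPM to 1.69, 7.05 and 5.48 TPM (-1.05 ± 0.15, adjusted p = 0.0346), and it was the 1 call of that list. The 17 dendritic cell markers summed to 385 to 564 TPM under DMSO, against 389 to 493 TPM under WM-1119. Of 9 tested 7 were negative (median -0.22), and SIGLEC6 was the call. Erythroid markers summed to 355 to 876 TPM under DMSO, against 342 to 835 TPM under WM-1119, and eosinophil, basophil and mast cell markers to 425 to 1083 TPM, against 862 to 1343 TPM. RNASE2, a granule ribonuclease that myeloid precursors also express, gave 703, 521 and 309 TPM of the latter in DMSO and 963, 638 and 619 TPM in WM-1119. Megakaryocyte markers summed to 108 to 172 TPM, against 153 to 212 TPM, and stromal and epithelial markers to 368 to 1009 TPM, against 627 to 1059 TPM. VIM gave 376, 945 and 327 TPM of the stromal and epithelial sum in DMSO and 628, 985 and 568 TPM in WM-1119. CA2 gave 178, 262 and 480 TPM of the erythroid sum in DMSO and 171, 208 and 168 TPM in WM-1119. Single genes thus made up much of these sums. The part of these markers in the results was not tested.

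The number of calls depends on the pairing and on which symbols enter the fit. Without the replicate block limma called 0 genes, with 269 higher and 92 lower at an unadjusted p under 0.05, and it also called 0 with no filter on low values or with small RNA symbols kept, where 2031 and 1645 genes were higher and 852 and 611 lower at an unadjusted p under 0.05. Without pair 1 limma called 0 genes higher and 1 lower, without pair 2 92 and 14, and without pair 3 2 and 0. Under median-of-ratios scaling 187 of the 208 genes remained called, under quantile normalization 168 and after rescaling without ribosomal protein and small RNA symbols 161, and every called gene still tested there kept its sign. Among the called genes named in this text, HLA-B, HLA-C, SIGLEC14 and RNA5-8SN4 were not called under any of these 3 scalings. HP, NQO1, TNFAIP2, TNFSF13B and VCAN were called under 1 of them, and CYBA, GHRL, MSRA, MSRB1, MYOF, PAK3 and S100A8 under 2. The other calls lost were of genes not named in this text. The share of calls that were higher was 78.8% here, 64.8% under median-of-ratios, 66.5% under quantile normalization and 58.3% after rescaling without ribosomal protein and small RNA symbols.

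**Figure D4:**
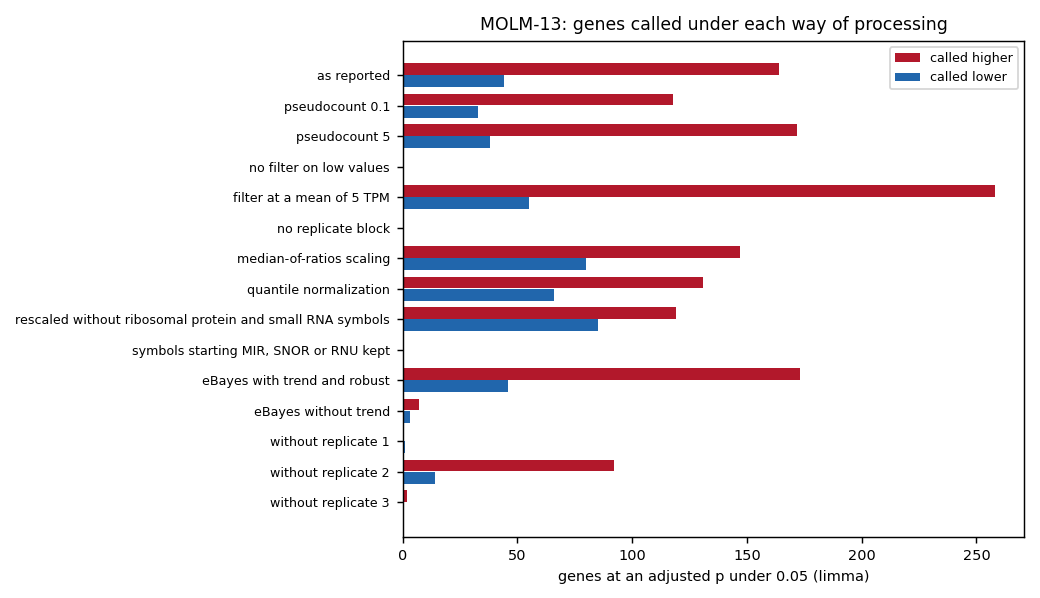
Bars give the genes at an adjusted p under 0.05 (limma), red for higher and blue for lower in WM-1119, as reported and under each of 14 other ways of processing the same 6 libraries. Calls go to 0 without the replicate block, without a filter on low values and with small RNA symbols kept, and a filter at a mean of 5 TPM gives the most genes higher, 258.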

How the data were processed

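RNA-seq of 6 MOLM-13 libraries was analysed, 3 per treatment. The deposited values are TPM per gene symbol, which the authors estimated with Salmon, and the builds hg38 and mm10 are named, per the submitters' processing notes. Neither the Salmon version nor the transcript set is given in the sources used here. TPM keep no depth, so no counting interval can be given, and 0 columns were left unassigned. Coordinates are from GENCODE 29 (GRCh38), where 11374 of the tested symbols matched a single gene.

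The filter kept genes averaging 1 TPM or more, and 2420 symbols starting MIR, SNOR or RNU were left out. A pseudocount of 1 was added, log2 values were fitted with limma 3.58.1 in R 4.3.3 (lmFit with the replicate number as a block, eBayes with trend), and two-sided p-values were adjusted by Benjamini-Hochberg over all genes tested. Pairing by replicate number is part of how the comparison was defined. Same-numbered libraries deviated together from their group means, with correlations across genes of 0.758, 0.669 and 0.806, all above a set minimum of 0.1. These come from the values then tested, so they are no separate ground for the block. The labels do not say what a number shares. The fit was tested on simulated data with 200 changed genes. Figures were drawn with matplotlib 3.10.9.

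The comparison, its members and the 46 gene lists were chosen with earlier results of these data known, so lists are described by counts and medians. Genes named are, per direction, the 15 largest differences and 10 smallest p among genes of 1 sign in all pairs, an unadjusted p under 0.05, a group mean reaching 5 TPM and a symbol that marks no placeholder, non-coding gene or pseudogene. Per list the 3 smallest p and the most abundant member, and 22 fixed genes, were added. Some genes the rule takes are not printed. ENPP2, list members named only as called or as absent, family members, GAPT, CCL23, MYOF and LAMP5 lie outside the rule and were chosen with their values in view.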

Additional observations from a re-analysis of the deposited data

How the results depend on the processing

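Counts of calls moved with the block, the symbols kept, the trend and the replicates used. Against 164 genes higher and 44 lower, limma called 0 and 0 without the replicate block (269 and 92 at an unadjusted p under 0.05, lowest adjusted p = 0.139), with no filter on low values (2031 and 852, lowest adjusted p = 0.239) and with small RNA symbols kept (1645 and 611, lowest adjusted p = 0.0532). It called 7 and 3 without the trend and 258 and 55 with a filter at a mean of 5 TPM. Without a replicate the calls ranged from 0 to 92 higher and from 0 to 14 lower, and the genes higher at an unadjusted p under 0.05 from 878 to 1778, against 1850. The 1 gene lower without replicate 1 was VTRNA1-1, and the 2 higher without replicate 3 were SLPI and LOC105372493. Scaling moved genes lower from 44 to 80 (median-of-ratios) and 85 (rescaled without ribosomal protein and small RNA symbols). At an unadjusted p under 0.05, 1213 higher and 1242 lower were counted with median-of-ratios, 1204 lower with quantile normalization, and 1068 and 1544 after rescaling. The genes at 0.5 or more in every pair, 114 higher and 43 lower, came to 82 lower with a pseudocount of 0.1, 43 and 6 with a pseudocount of 5, 75 and 20 with the 5 TPM filter, 106 lower after rescaling and 67 lower with small RNA symbols kept. They ranged from 153 to 300 higher and 79 to 131 lower without a replicate, where fewer pairs have to meet the rule. The cause of the other shifts was not tested. The difference of KAT6A, 0.01, came to -0.0559 with median-of-ratios, -0.0492 with quantile normalization, -0.0840 after rescaling and -0.0336 to 0.0652 without a replicate. Depth is unknown, so what it limits cannot be stated.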

Other observations

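Further called genes fall into groups that were put together after their values were seen. Among transcription factors best known from the embryo, ZIC2, MEIS2 and DLX1 rose and SHOX2 fell. ZIC2 was at 0.134, 0.173 and 0.216 TPM in DMSO and 1.86, 2.19 and 2.64 TPM in WM-1119 (1.45 ± 0.16, limma adjusted p = 0.0216), and MEIS2 rose from 0.583, 1.58 and 1.09 TPM to 2.68, 3.22 and 3.76 TPM (1.04 ± 0.16, adjusted p = 0.0355). DLX1 stood higher, at 15.5, 15.2 and 16.1 TPM in DMSO and 25.7, 22.1 and 27.9 TPM in WM-1119, with little spread between replicates (0.65 ± 0.08, adjusted p = 0.0273). SHOX2 went the other way, from 20.4, 21.9 and 26.3 TPM to 13.5, 15.7 and 18.9 TPM (-0.49 ± 0.08, adjusted p = 0.0372).

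Single genes of redox defence were called higher, and their uncalled relatives were not counted. GSTP1, a glutathione transferase, was at 425, 365 and 322 TPM in DMSO and 623, 506 and 498 TPM in WM-1119 (0.55 ± 0.08, adjusted p = 0.0300). The methionine sulfoxide reductases MSRA and MSRB1 rose by 0.55 ± 0.08 and 0.56 ± 0.08 (adjusted p = 0.0328 and 0.0355). NQO1, a quinone reductase, rose by 0.61 ± 0.10 (adjusted p = 0.0372).

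Among genes that fell were some of secreted signals and their receptors. LRP5, a Wnt coreceptor, fell from 14.8, 11.96 and 11.4 TPM to 8.52, 7.12 and 5.64 TPM (-0.77 ± 0.09, adjusted p = 0.0232). NKD2, an inhibitor of Wnt signalling, fell by 0.62 ± 0.09 on the log2 scale (adjusted p = 0.0355). The TGF-beta family ligands BMP2 and INHBA fell by 0.73 ± 0.12 and 0.68 ± 0.10 (adjusted p = 0.0372 and 0.0367), BMP2 from 3.24, 5.40 and 7.23 TPM to 1.87, 2.84 and 3.41 TPM. E2F5, a repressor of the E2F family, fell from 5.51, 5.02 and 7.94 TPM to 2.95, 2.57 and 4.20 TPM (-0.75 ± 0.10, adjusted p = 0.0279).

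Ligands of lymphocyte receptors were called in both directions. TNFSF13 and TNFSF13B, the genes of APRIL and BAFF, rose by 0.56 ± 0.09 and 0.53 ± 0.09 (adjusted p = 0.0400 and 0.0466), and ULBP2, a ligand of the NK cell receptor NKG2D, from 0.454, 2.50 and 0.757 TPM to 3.24, 5.85 and 5.50 TPM (1.47 ± 0.19, adjusted p = 0.0272). PVR, a ligand of NK cell receptors, fell from 21.2, 16.4 and 18.8 TPM to 13.7, 12.2 and 13.4 TPM (-0.48 ± 0.08, adjusted p = 0.0457). Entries of ribosomal RNA were called too, RNA5-8SN4 from 12.6, 24.4 and 49.7 TPM to 58.7, 67.3 and 77.1 TPM (1.39 ± 0.25, adjusted p = 0.0494). Such entries have many near-identical copies, so single values are uncertain.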
